A study of Mus musculus with 6 samples.

Results

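The Id genes Id1, Id2 and Id3 and 7 genes of transforming growth factor beta (TGF-beta) and bone morphogenetic protein (BMP) signalling, Smad6, Smad7, Skil, Tgfb1, Tgfbr1, Tgfbr2 and Bmpr1a, were followed in cultured mouse macrophages. They are 10 of the 24411 genes listed for each library, and all 10 were among the 11692 that passed the filter on low counts. They were matched by symbol and had been selected on their difference between the same LFA1-hi and LFA1-lo libraries. That difference is therefore given below as a description. Where any of the 10 is said to pass a threshold in a fit across all genes, this is no independent test of that gene. RNA was sequenced from macrophages of C57BL/6 mice, an inbred strain, grown from bone marrow monocytes that a cell sorter had split by 2 adhesion molecules. LFA1-hi macrophages came from monocytes high for both LFA1, an integrin of leukocytes, and Itgam, the integrin chain CD11b, and LFA1-lo macrophages from monocytes low for both. Both groups were then kept for 7 days under identical conditions, with 20 ng/ml of macrophage colony-stimulating factor (M-CSF) and 10% serum, and each group has 3 libraries. The labels give neither age nor sex of the mice. They also do not say that the 3 libraries of a group are separate animals or cultures, and errors and p-values therefore measure only the spread between these libraries, which may be technical.

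In this pathway a secreted ligand joins type II and type I receptors, which are kinases of the cell surface, and the type I receptor phosphorylates signal-carrying Smad proteins that enter the nucleus together with Smad4. TGF-beta and activin signals run mainly through Smad2 and Smad3, and BMP signals through Smad1, Smad5 and Smad9. Smad6, Smad7 and the Ski family protein encoded by Skil restrain the pathway, and their genes are also switched on by it. Id genes are switched on by its BMP signals. Id proteins bind the E protein transcription factors but lack a region that binds DNA, and so keep E proteins from their target genes. In myeloid cells Id2 is known for its part in dendritic cell development, and TGF-beta for its part in the identity of microglia and Langerhans cells.

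The libraries held 15191262 to 17614509 summed expected counts in LFA1-hi and 16404922 to 17115544 in LFA1-lo, and 3 counts were 0.168 to 0.192 CPM. CPM are here counts scaled to a common library size with TMM factors. All 9 macrophage markers examined were present, with summed levels of 14667 to 16882 CPM in LFA1-hi and 18301 to 24149 CPM in LFA1-lo libraries, and 5 of the 9 fell in the edgeR test while none rose. In that test 15.6% of all tested genes fell and 16.1% rose at an adjusted p of 0.05. Neutrophil markers (8 of 9 listed, none at 0 throughout) summed to 3.69 to 5.65 CPM in LFA1-hi and 11.9 to 41.8 CPM in LFA1-lo, and 3 of 4 tested fell. Endothelial markers summed to 77.6 to 84.7 CPM in LFA1-hi and 104 to 147 CPM in LFA1-lo, with Emcn and Cldn5 at 0 in all 6 libraries. That difference lay in Vwf (52.3 to 62.6 CPM in LFA1-hi, 92.0 to 129.0 CPM in LFA1-lo), while Kdr, Cdh5 and Pecam1 had positive log2 fold changes that did not pass. Summed megakaryocyte markers, nearly all from Pf4, were at 258 to 291 CPM in LFA1-hi and 227 to 302 CPM in LFA1-lo, with Gp9 at 0. The 9 fibroblast and stromal markers each stayed under 1 CPM, as did the markers of dendritic cells, mast cells, erythroid cells and of T and NK cells, and 5 of 6 B cell markers, of which Pax5 and Ebf1 were at 0. The part of these marker differences in the results below was not tested. LFA1-lo replicate 2 was the least like its own group (Pearson correlations of log2 CPM across genes of 0.97 with each of the other LFA1-lo libraries, against 0.98 between those). It also held less Mrc1 (554 CPM, against 1123 and 1247) and less Mertk (46.5 CPM, against 90.0 and 103.6), both macrophage receptors. Csf1r, Adgre1, Lyz2 and Itgam were also lowest there among the LFA1-lo libraries. The other macrophage markers, Fcgr1 (171.0 CPM, against 89.05 and 140.0), Cd68 and Cd14, were highest there.

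Of the 10 genes, 5 had a positive and 5 a negative log2 fold change of LFA1-hi over LFA1-lo, with a median of −0.03, where the median of all tested genes was −0.0047. Id1 was 6.16-fold higher in LFA1-hi macrophages, Smad6 was 1.70-fold higher, and Tgfb1 was lower by 0.50 on the log2 scale. In the fit across all genes 3 of the 10 passed an adjusted p of 0.05 in edgeR's quasi-likelihood test, 2 higher (Id1 and Smad6) and 1 lower (Tgfb1), beside 31.7% of all tested genes, 16.1% higher and 15.6% lower. The CPM values of the groups did not overlap for 6 of the 10 (Id1, Id3 and Smad6 higher, Skil, Tgfb1 and Tgfbr1 lower), beside 47.8% of tested genes, and the same 6 did not overlap in TPM. Nothing is read from these counts, since the contrast chose the genes. Without LFA1-lo replicate 2 the count of 3 became 8, all but Smad7 and Bmpr1a, where 42.3% of all genes passed. Smad6 did not pass without LFA1-hi replicate 1 or 3, and Bmpr1a took its place in the count without LFA1-hi replicate 3.

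**Figure D1:**
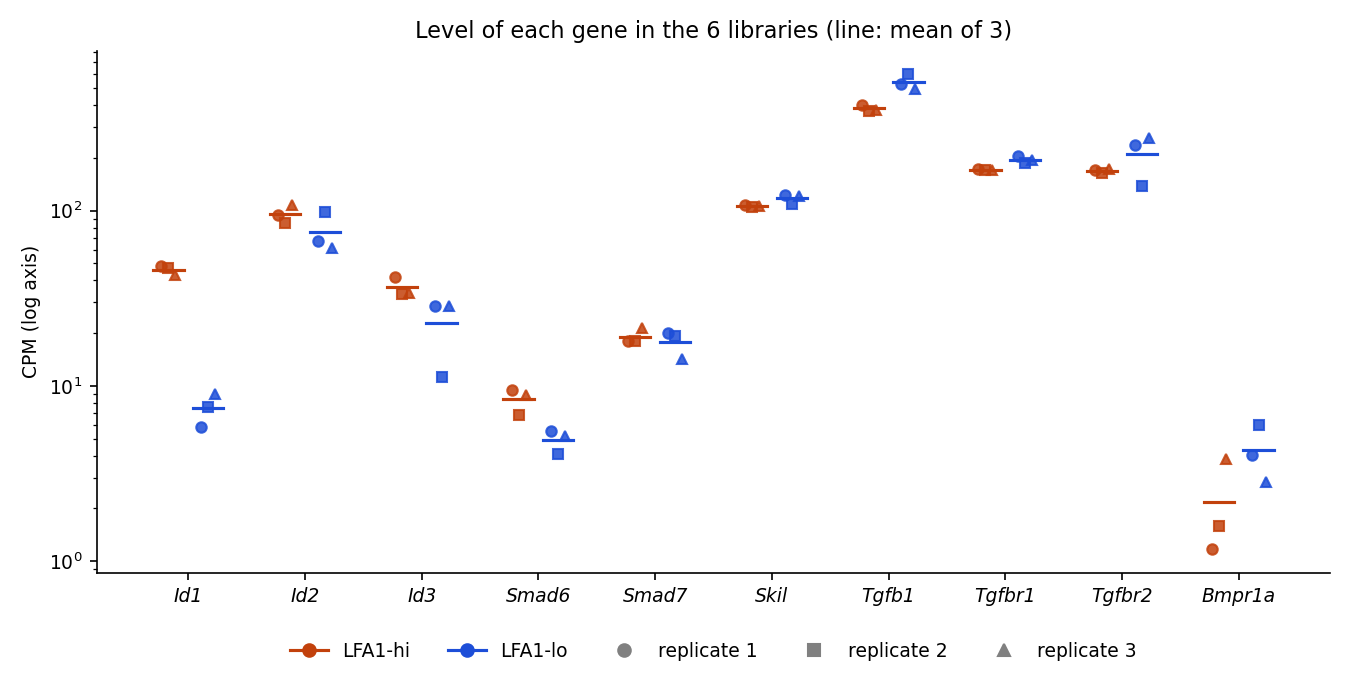
CPM on a log axis of the 10 genes in each library, with LFA1-hi (orange) left of LFA1-lo (blue) for each gene, a marker shape per replicate number and a line at the mean of 3 libraries. Id1 sits between 43.2 and 48.2 CPM in LFA1-hi and between 5.85 and 8.99 CPM in LFA1-lo, the widest gap among the 10 genes on this log axis.

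Id1, which encodes an inhibitor of E proteins and is a direct BMP target in many cell types, lies on chromosome 2 (GRCm38, 152736251 to 152737410, plus strand). It had 48.2, 47.0 and 43.2 CPM in LFA1-hi replicates 1, 2 and 3, against 5.85, 7.59 and 8.99 CPM in LFA1-lo replicates 1, 2 and 3. Every LFA1-hi library was thus well above every LFA1-lo library, and the values rest on 738 to 862 counts in LFA1-hi and 98 to 153 counts in LFA1-lo. The means were 46.1 ± 2.62 CPM in LFA1-hi and 7.48 ± 1.57 CPM in LFA1-lo (SD, n = 3 each), a log2 fold change of 2.62 with a standard error of 0.16 (95% interval 2.27 to 2.98). It ranked 34 from the top among the log2 fold changes of the 11692 tested genes. In bulk libraries such as these, fewer cells with the RNA and less RNA per cell cannot be told apart.

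Id2, which encodes the Id protein with a known part in dendritic and innate lymphoid cell development (chromosome 12, 25093799 to 25096092, minus strand), had 94.97, 85.1 and 107.8 CPM in LFA1-hi, against 66.7, 98.3 and 61.4 CPM in LFA1-lo. The groups overlapped through LFA1-lo replicate 2, which was above 2 of the 3 LFA1-hi libraries. Its log2 fold change was 0.35 (SE 0.18, 95% interval −0.06 to 0.76), or 0.58 without that library. Id3 (chromosome 4, 136143822 to 136145392, plus strand), which encodes a further inhibitor of this kind and is, like Id1, an early BMP target, had 42.0, 33.3 and 34.1 CPM in LFA1-hi, against 28.7, 11.3 and 28.7 CPM in LFA1-lo. All LFA1-hi libraries were higher, yet LFA1-lo replicate 2 was far below the other LFA1-lo libraries, the reverse of its place for Id2. The log2 fold change of Id3 was 0.67 (SE 0.33, 95% interval −0.09 to 1.43) with all libraries and 0.35 without LFA1-lo replicate 2. Id4, the remaining gene of the family, had 0 counts in all 6 libraries.

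The upstream sequences of Id2 and Id3 (RefSeq, GRCm38.p6) are shown because LFA1-lo replicate 2 left its group in opposite directions for these relatives, the highest LFA1-lo value for Id2 and the lowest for Id3. Windows were found for 7 of the 10 genes. Each is the 250 bases before the annotated start site, 5′ to 3′ on the gene's strand, in lower case with capitals for matches to the motifs searched on both strands. These were GTCTAGAC and GGCGCC (Smad elements), TGACGTCA (CREB), TGANTCA (AP-1), GCGNGGGCG (Egr), and CAGCTG and CACGTG (E-boxes, to which E proteins and related factors bind).
Id2 (chr12:25096093-25096342, strand -): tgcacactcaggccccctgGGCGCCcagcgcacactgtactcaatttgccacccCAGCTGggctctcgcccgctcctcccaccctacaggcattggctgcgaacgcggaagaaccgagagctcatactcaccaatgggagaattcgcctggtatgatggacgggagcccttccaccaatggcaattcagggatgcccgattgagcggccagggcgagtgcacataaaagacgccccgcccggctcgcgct
Id3 (chr4:136143572-136143821, strand +): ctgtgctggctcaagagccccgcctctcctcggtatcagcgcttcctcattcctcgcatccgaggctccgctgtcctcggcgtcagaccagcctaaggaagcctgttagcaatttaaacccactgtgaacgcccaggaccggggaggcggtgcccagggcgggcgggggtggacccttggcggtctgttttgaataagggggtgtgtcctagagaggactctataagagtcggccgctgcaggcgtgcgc
Id2 held GGCGCC, which 9.59% of 32851 RefSeq windows of this length hold, and CAGCTG, which 13% hold, while Id3 held none of the 7. GC content was 62.8% in both windows, against a median of 52.4% over all windows. A match is a description of these letters, and the absence of one says nothing of factors that bind elsewhere.

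The amount and make-up of the Id genes are described from the same values that chose them. Mean TPM in LFA1-hi and LFA1-lo was 114.5 and 18.74 for Id1, and 88.08 and 56.45 for Id3. For Id2 it was 161.5 and 128.3, with overlapping libraries. In TPM, which also scales for transcript length, the summed level of Id1, Id2 and Id3 was 375, 350.4 and 367 in LFA1-hi, against 203, 208 and 199.5 in LFA1-lo, so the sum varied little within a group and the groups were far apart. Id1 made up 31.4%, 34.2% and 28.9% of that sum in LFA1-hi libraries, against 7.39%, 8.87% and 11.4% in LFA1-lo libraries. Id2 remained the most abundant Id gene, with 44.3% ± 3.94 of the sum in LFA1-hi and 62.9% ± 13.5 in LFA1-lo (SD, n = 3 each). In LFA1-lo replicate 2 Id2 was 78.3% of the sum and Id3 was 12.9%, while in the other LFA1-lo libraries Id2 had 57.3% and 53.0% and Id3 had 35.4% and 35.5%. Id1 exceeded Id3 in all LFA1-hi libraries, at 118 to 145 TPM of Id1 per 100 TPM of Id3, and was below it in all LFA1-lo libraries, at 20.9 to 69.0 per 100.

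**Figure D2:**
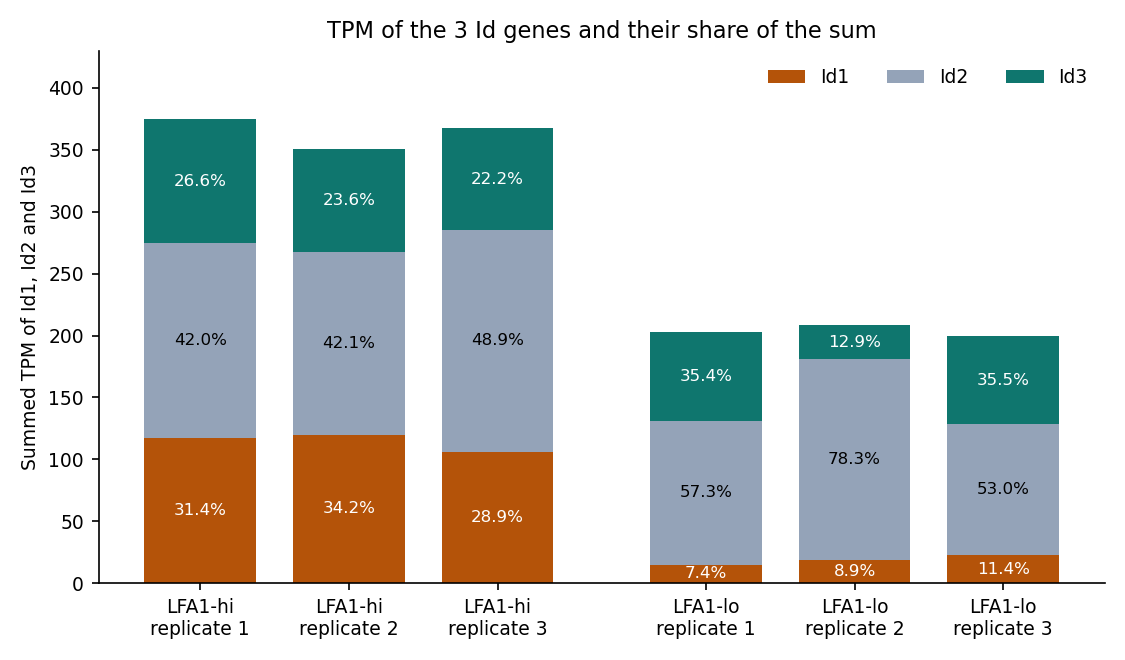
Stacked TPM of Id1, Id2 and Id3 in each library, LFA1-hi left and LFA1-lo right, with each gene's percent of the sum printed in its segment. The sum is 350.4 to 375 TPM in LFA1-hi and 199.5 to 208 TPM in LFA1-lo, and the Id1 segment is the one that differs most between the groups.

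The E proteins that Id proteins bind were measured beside them. Tcf4 fell to 74.3 ± 1.99 CPM in LFA1-hi, against 128 ± 21.6 CPM in LFA1-lo (SD over 3 libraries; log2 fold change −0.79 with SE 0.12, adjusted p = 0.00136 in edgeR). Tcf3, which encodes E12 and E47, was at 30.5 ± 0.743 and 31.3 ± 3.63 CPM in LFA1-hi and LFA1-lo (−0.04, 95% interval −0.29 to 0.22, adjusted p = 0.835). Tcf12 was at 71.1 ± 2.65 CPM in LFA1-hi and 89.8 ± 18.8 CPM in LFA1-lo (−0.34, adjusted p = 0.0929). Leaving out LFA1-lo replicate 2 gave −0.47 (adjusted p = 0.00126), and the highest p over alternatives was 0.265. The summed TPM of the Id genes was 499 to 580 per 100 TPM of these 3 genes in LFA1-hi libraries and 196 to 289 per 100 in LFA1-lo libraries.

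The list also holds other basic helix-loop-helix factors. Tal1, a partner of E proteins in blood progenitors, fell to 11.5, 9.62 and 11.4 CPM in LFA1-hi, against 28.1, 32.0 and 29.5 CPM in LFA1-lo (−1.46, SE 0.13, edgeR adjusted p = 7.77e-05). Its relative Lyl1 fell too (−0.74, SE 0.16, adjusted p = 0.00732), whereas Bhlhe41, a repressor of this class, rose to 87.0 ± 6.73 CPM in LFA1-hi, against 55.9 ± 2.17 CPM in LFA1-lo (0.64, SE 0.09, adjusted p = 0.000789). Its relative Bhlhe40, chosen after its values were seen, was at 46.3 ± 7.48 CPM in LFA1-hi and 57.6 ± 21.8 CPM in LFA1-lo and did not pass (−0.32, adjusted p = 0.41). In all, 1 of 7 tested genes of the list rose and 3 fell (median −0.34), which is 57.1% beside 31.7% of all tested genes.

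Tgfb1, encoding TGF-beta 1, was by far the most abundant ligand gene (chromosome 7, 25687002 to 25705077, plus strand). It had 401, 372 and 377 CPM in LFA1-hi, against 528, 598 and 495 CPM in LFA1-lo. Each LFA1-hi library was below each LFA1-lo library, with a log2 fold change of −0.50 (SE 0.09, 95% interval −0.69 to −0.30). In TPM it had 363 ± 10.6 in LFA1-hi and 518 ± 39.2 in LFA1-lo, the highest level of the 10 genes in both groups. Its upstream window is shown as that of the most abundant of these genes, drawn and marked as above.
Tgfb1 (chr7:25686752-25687001, strand +): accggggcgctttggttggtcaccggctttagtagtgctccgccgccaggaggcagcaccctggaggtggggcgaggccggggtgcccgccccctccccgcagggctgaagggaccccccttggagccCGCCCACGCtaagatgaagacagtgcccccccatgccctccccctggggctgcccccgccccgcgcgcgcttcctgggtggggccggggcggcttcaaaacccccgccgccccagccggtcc
It held a match to the Egr element on the opposite strand at −122 from the start site, an element that 4.70% of all windows hold, and its GC content was 75.2%.

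Of 30 other ligand genes of the TGF-beta superfamily only 4 passed the filter on low counts, and 17 had 0 counts in all 6 libraries, Tgfb2, Bmp4 and Bmp7 among them. Gdf15, a stress-induced cytokine, rose to 38.8, 40.9 and 29.6 CPM in LFA1-hi, against 14.1, 10.4 and 9.81 CPM in LFA1-lo (1.67, SE 0.18, edgeR adjusted p = 0.000205). Bmp2, a BMP ligand, was low in both groups and fell to 0.447, 0 and 0.056 CPM in LFA1-hi, against 1.91, 2.87 and 1.82 CPM in LFA1-lo (−3.61, SE 0.79, adjusted p = 0.00791). The LFA1-hi value of Bmp2 rests on 9 counts over 3 libraries, and its fold change moved to −5.89 without LFA1-hi replicate 1 and to −1.003 on log2(TPM + 1), passing in both. The other ligand genes tested, Gdf3 and Tgfb3, outside the rule for named genes and chosen after their values were seen, were at 53.4 ± 11.1 and 1.47 ± 0.343 CPM in LFA1-hi and at 28.3 ± 12.4 and 0.436 ± 0.597 CPM in LFA1-lo (adjusted p = 0.0774 and 0.168). Without LFA1-lo replicate 3 both passed (Gdf3 0.61 with adjusted p = 0.0393, Tgfb3 3.88 with adjusted p = 0.0126), and Gdf3 also passed in DESeq2 (0.00697) and Tgfb3 in limma voom (0.049), where the highest p over alternatives was 0.181 for Gdf3 and 0.363 for Tgfb3.

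TGF-beta is secreted in a latent form, and of the genes that anchor, cleave or activate that form 2 of 7 tested rose and 4 fell (median −0.48). That is 85.7% of those tested, beside 31.7% of all tested genes. Leaving out any 1 LFA1-hi library left 1 rising and 3 falling. Thbs1, encoding thrombospondin 1, which can activate latent TGF-beta, fell to 9.17, 15.9 and 15.3 CPM in LFA1-hi, against 107.3, 180.0 and 161 CPM in LFA1-lo (−3.47, SE 0.27, edgeR adjusted p = 0.000154). Lrrc32, encoding GARP, a surface anchor, fell to 0.224, 0 and 0.952 CPM in LFA1-hi, against 7.46, 37.2 and 7.05 CPM in LFA1-lo. Lrrc32 was far higher in LFA1-lo replicate 2 than in the other LFA1-lo libraries, and its log2 fold change was −5.38 (SE 1.12, adjusted p = 0.0131) with that library and −4.14 (adjusted p = 0.0022) without it. The call was lost without the filter on low counts (adjusted p = 0.0531) and in limma voom (0.144), where the lowest p over alternatives was 0.00116. Ltbp3, a latent TGF-beta binding protein (−0.77, SE 0.13, adjusted p = 0.00245), and Furin, the protease that cleaves the precursor (−0.48, SE 0.13, adjusted p = 0.0229), also fell. The Furin call was lost when any 1 LFA1-hi library or LFA1-lo replicate 1 or 3 was left out (adjusted p = 0.0602 to 0.102) and with scaling by library totals (0.0503). Itgav, the integrin chain of latent TGF-beta receptors, rose to 509.5 ± 32.9 CPM in LFA1-hi, against 413 ± 33.7 CPM in LFA1-lo (0.30, SE 0.09, adjusted p = 0.026), a call lost without LFA1-hi replicate 2 or 3 (adjusted p = 0.103 and 0.116) and on log2 TPM (0.0757 at both pseudocounts tried). Ltbp2, below the level set for naming and added because it was the other rising gene, had 1.62 ± 0.837 CPM in LFA1-hi and 0.281 ± 0.12 CPM in LFA1-lo (2.49, adjusted p = 0.0126). Ltbp2 did not pass without LFA1-hi replicate 1 (adjusted p = 0.0738) or on log2(TPM + 1) (0.0923). Nrros, outside the rule and chosen after its values were seen, was the 1 tested gene of this list that did not pass. It was far more abundant than Lrrc32, at 280.3 ± 7.97 CPM in LFA1-hi and 325.3 ± 18.15 CPM in LFA1-lo (−0.21, SE 0.07, edgeR adjusted p = 0.0503).

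Tgfbr2 and Tgfbr1 encode the receptors that bind TGF-beta 1. Tgfbr1, the type I receptor (chromosome 4, 47353222 to 47414926, plus strand), had 172, 170.4 and 171 CPM in LFA1-hi, against 206, 186 and 195 CPM in LFA1-lo. Its LFA1-hi libraries were nearly equal and all lower, with a log2 fold change of −0.19 (SE 0.07, 95% interval −0.35 to −0.03). Tgfbr2, the type II receptor (chromosome 9, 116087695 to 116175363, minus strand), had 169.6, 164 and 173 CPM in LFA1-hi, against 236, 138 and 261 CPM in LFA1-lo. LFA1-lo replicate 2 was the lowest of the 6 libraries and the other LFA1-lo libraries were the highest, so the groups overlapped (−0.33, SE 0.21, 95% interval −0.82 to 0.17, and −0.56 without LFA1-lo replicate 2). Tgfbr2 stood at 116 to 121 TPM per 100 TPM of Tgfbr1 in LFA1-hi libraries and at 138, 89.3 and 160.4 per 100 in LFA1-lo replicates 1, 2 and 3.

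Bmpr1a, a type I BMP receptor (chromosome 14, 34411061 to 34503336, minus strand), was the least abundant of the 10 genes. It had 1.17, 1.59 and 3.81 CPM in LFA1-hi, from 21, 25 and 68 counts, against 4.06, 6.00 and 2.82 CPM in LFA1-lo, from 68, 94 and 48 counts. LFA1-hi replicate 3 overlapped the LFA1-lo libraries, and the log2 fold change of −0.96 had a wide error (SE 0.47, 95% interval −2.02 to 0.10), becoming −1.63 without that library. An exon of Gm17110 on the opposite strand overlaps Bmpr1a in GENCODE M21, and since the strand setting of the counting is not given, reads of the pair may be mixed. Per length, Bmpr1a made up 0.933% to 3.16% of the summed TPM of Acvrl1, Acvr1 and Bmpr1a in LFA1-hi libraries and 2.53% to 4.12% in LFA1-lo libraries.

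Among 10 other receptor and coreceptor genes tested, none rose and 3 fell (median −0.21), which is 30.0% beside 31.7% of all tested genes. The 3 became 1 without LFA1-hi replicate 1 or 2 or LFA1-lo replicate 1. Acvr2a, a type II receptor for activins and BMPs, fell to 9.18 ± 1.75 CPM in LFA1-hi, against 19.5 ± 3.36 CPM in LFA1-lo (−1.09, SE 0.19, edgeR adjusted p = 0.00254). Tgfbr3, the coreceptor betaglycan, fell to 2.28 ± 0.804 CPM in LFA1-hi, against 5.84 ± 2.06 CPM in LFA1-lo (−1.35, SE 0.38, adjusted p = 0.0227), a call lost without LFA1-hi replicate 1 or 2 or LFA1-lo replicate 1 (adjusted p = 0.0707 to 0.087) and on log2(TPM + 0.1) (0.052). Acvr1b, the activin type I receptor, fell by 0.30 on the log2 scale (SE 0.09, adjusted p = 0.0321), and it passed in only 1 of the 6 fits that leave out a library, the one without LFA1-lo replicate 2 (adjusted p = 0.0172 to 0.113), and it was also lost without the filter on low counts (0.0552) and with library totals (0.0796). Bmpr2, the main type II BMP receptor, was at 169.7 ± 7.97 CPM in LFA1-hi and 203.5 ± 21.9 CPM in LFA1-lo (−0.26, adjusted p = 0.0579). It passed in DESeq2 (adjusted p = 0.0474) and when LFA1-lo replicate 2 was left out (−0.35, adjusted p = 0.000798), and the highest p over alternatives was 0.199. Acvrl1, a type I receptor for BMP9 and BMP10 best known from endothelium, was at 41.6 ± 3.05 and 41.4 ± 7.04 CPM in LFA1-hi and LFA1-lo (0.01, 95% interval −0.29 to 0.31, adjusted p = 0.963). Acvr1 (−0.16, adjusted p = 0.311) and the scarce Acvr2b (−0.94, adjusted p = 0.163) did not pass either, and Bmpr1b, Acvr1c and Amhr2 were too low to be tested.

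None of the 5 signal-carrying Smads tested passed the threshold, beside 31.7% of all tested genes. Smad1, which carries BMP signals, was at 37.8 ± 1.54 CPM in LFA1-hi and 30.6 ± 5.99 CPM in LFA1-lo (0.31, SE 0.14, edgeR adjusted p = 0.123), and leaving out LFA1-lo replicate 1 gave 0.48 (adjusted p = 0.0183), where the highest p over alternatives was 0.287. Smad5 was at 32.6 ± 1.26 and 31.6 ± 4.91 CPM in LFA1-hi and LFA1-lo (0.04, 95% interval −0.24 to 0.33). Smad2 (−0.15, 95% interval −0.34 to 0.03) and Smad3 (−0.04, 95% interval −0.34 to 0.25), which carry TGF-beta signals, did not pass, and Smad9 was too low to be tested. The shared partner Smad4 was at 53.7 ± 0.808 CPM in LFA1-hi and 62.4 ± 5.56 CPM in LFA1-lo (−0.22, adjusted p = 0.0999), and leaving out LFA1-lo replicate 2 gave −0.27 (adjusted p = 0.0224), where the highest p over alternatives was 0.309.

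The inhibitory Smads are given next. Smad6, which acts mainly against BMP signals (chromosome 9, 63953076 to 64022085, minus strand), had 9.45, 6.81 and 8.90 CPM in LFA1-hi, against 5.55, 4.08 and 5.17 CPM in LFA1-lo. All LFA1-hi libraries were higher, from 107 to 169 counts each against 64 to 93 in LFA1-lo, with a log2 fold change of 0.76 (SE 0.22, 95% interval 0.27 to 1.26). Smad7, which acts against TGF-beta and BMP signals (chromosome 18, 75367365 to 75395935, plus strand), had 17.9, 18.02 and 21.3 CPM in LFA1-hi, against 20.0, 19.3 and 14.3 CPM in LFA1-lo. Its groups overlapped, and its log2 fold change of 0.09 (SE 0.16, 95% interval −0.26 to 0.45) turned to −0.04 without LFA1-lo replicate 3. Smad6 stood at 80.9, 58.0 and 64.2 TPM per 100 TPM of Smad7 in LFA1-hi, against 42.4, 32.4 and 55.5 per 100 in LFA1-lo. Together Smad6 and Smad7 had 25.7 ± 2.49 TPM per 100 TPM of Smad1, Smad2, Smad3 and Smad5 in LFA1-hi and 21.8 ± 1.34 per 100 in LFA1-lo, with overlapping values.

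Skil, which encodes the corepressor SnoN (chromosome 3, 31095058 to 31122923, plus strand), had 107.3, 104.8 and 105.7 CPM in LFA1-hi, against 123, 109.1 and 121 CPM in LFA1-lo. The groups were adjacent without overlap, LFA1-lo replicate 2 lying closest to the LFA1-hi libraries, with a log2 fold change of −0.15 (SE 0.08, 95% interval −0.33 to 0.03). Its relative Ski, outside the rule for named genes and chosen after its values were seen, fell to 149 ± 11.0 CPM in LFA1-hi, against 182 ± 9.32 CPM in LFA1-lo (−0.30, SE 0.08, edgeR adjusted p = 0.0242). That call was lost without LFA1-hi replicate 2 or 3 or LFA1-lo replicate 1 (adjusted p = 0.0867 to 0.126) and with library totals (0.0632). Skil and Tgfbr2 are the members with more than 1 transcript in the files, and their mean transcript length per gene, which shows how reads were divided among transcripts, was 6967 ± 13.6 and 4748 ± 5.77 bases in LFA1-hi and 6964 ± 9.15 and 4753 ± 7.69 bases in LFA1-lo. The groups overlapped in both lengths. An exact 2-sided permutation test gave p = 0.8 and 0.5 (both 0.8 after Benjamini-Hochberg adjustment over the 2 tests), but 3 against 3 libraries allow no p below 0.1, so no difference could have passed.

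Of 14 tested intracellular regulators of the pathway, none rose and 6 fell (median −0.25), or 3 without LFA1-hi replicate 3. The 6 are 42.9% of those tested, beside 31.7% of all tested genes. Wwp1, a ubiquitin ligase that acts on receptors and Smads, fell to 333, 399 and 380.4 CPM in LFA1-hi, against 747, 579 and 728 CPM in LFA1-lo (−0.88, SE 0.11, edgeR adjusted p = 0.000529). Tgif1, a corepressor of Smad2 and Smad3, fell to 52.2 ± 1.83 CPM in LFA1-hi, against 89.99 ± 14.8 CPM in LFA1-lo (−0.78, SE 0.12, adjusted p = 0.00124). Ldlrad4, which holds back receptor-activated Smads, fell by 1.15 on the log2 scale (SE 0.25, adjusted p = 0.00738). Smurf1, a ligase that marks Smads and receptors for breakdown, fell by 0.38 (SE 0.11, adjusted p = 0.0254), a call lost when any 1 LFA1-hi library or LFA1-lo replicate 1 was left out (adjusted p = 0.0511 to 0.117). Beside Ski, the other falling gene was Nedd4l, also outside the rule (−0.33, adjusted p = 0.0267), which did not pass without LFA1-hi replicate 1 or 3 or LFA1-lo replicate 3 (adjusted p = 0.0579 to 0.126), with library totals (0.0642) or on log2 TPM (0.0687 and 0.0692).

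Among 17 widely cited target genes of the pathway, 9 were tested, of which 1 rose and 3 fell (median −0.25). That is 44.4% of those tested, beside 31.7% of all tested genes. Cdkn2b, the cell cycle inhibitor p15, fell to 2.18, 2.48 and 2.69 CPM in LFA1-hi, against 11.2, 16.2 and 5.29 CPM in LFA1-lo (−2.15, SE 0.38, edgeR adjusted p = 0.00321). Junb, a subunit of the AP-1 factor (−1.42, SE 0.17, adjusted p = 0.000613), and Gadd45b, a stress-induced gene (−1.11, SE 0.21, adjusted p = 0.00414), fell as well, and both also respond to many other stimuli. Fn1, encoding fibronectin, rose to 13.9, 19.7 and 26.4 CPM in LFA1-hi, against 4.66, 9.06 and 1.88 CPM in LFA1-lo (1.95, SE 0.50, adjusted p = 0.024), a call lost without LFA1-hi replicate 2 or 3 or LFA1-lo replicate 1 (adjusted p = 0.0534 to 0.0731) and without the filter on low counts (0.0726). Tgfbi, which did not pass and was chosen after its values were seen as a classical TGF-beta target, had a log2 fold change of 0.10 (adjusted p = 0.701), and Ctgf had 0 counts in all LFA1-hi libraries and under 1 CPM in LFA1-lo.

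Across the 8 lists, 57 of the 118 other genes, here called pathway genes, were tested, and 5 of them rose and 20 fell. That is 43.9% of those tested, beside 31.7% of all tested genes. Their median log2 fold change was −0.21, with 18 positive and 39 negative values. The totals include the list of Id partners and related basic helix-loop-helix factors, with 7 tested genes, of which 1 rose and 3 fell. The genes that rose numbered 3 without LFA1-hi replicate 2 and 8 without LFA1-lo replicate 2, and those that fell 15 to 25 over the fits that leave out a library. Of 13 secreted antagonists just Twsg1 was tested, and it did not pass (0.23, adjusted p = 0.16), and the classical BMP antagonists Nog, Chrd and Grem1 had 0 counts in all 6 libraries.

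**Figure D3:**
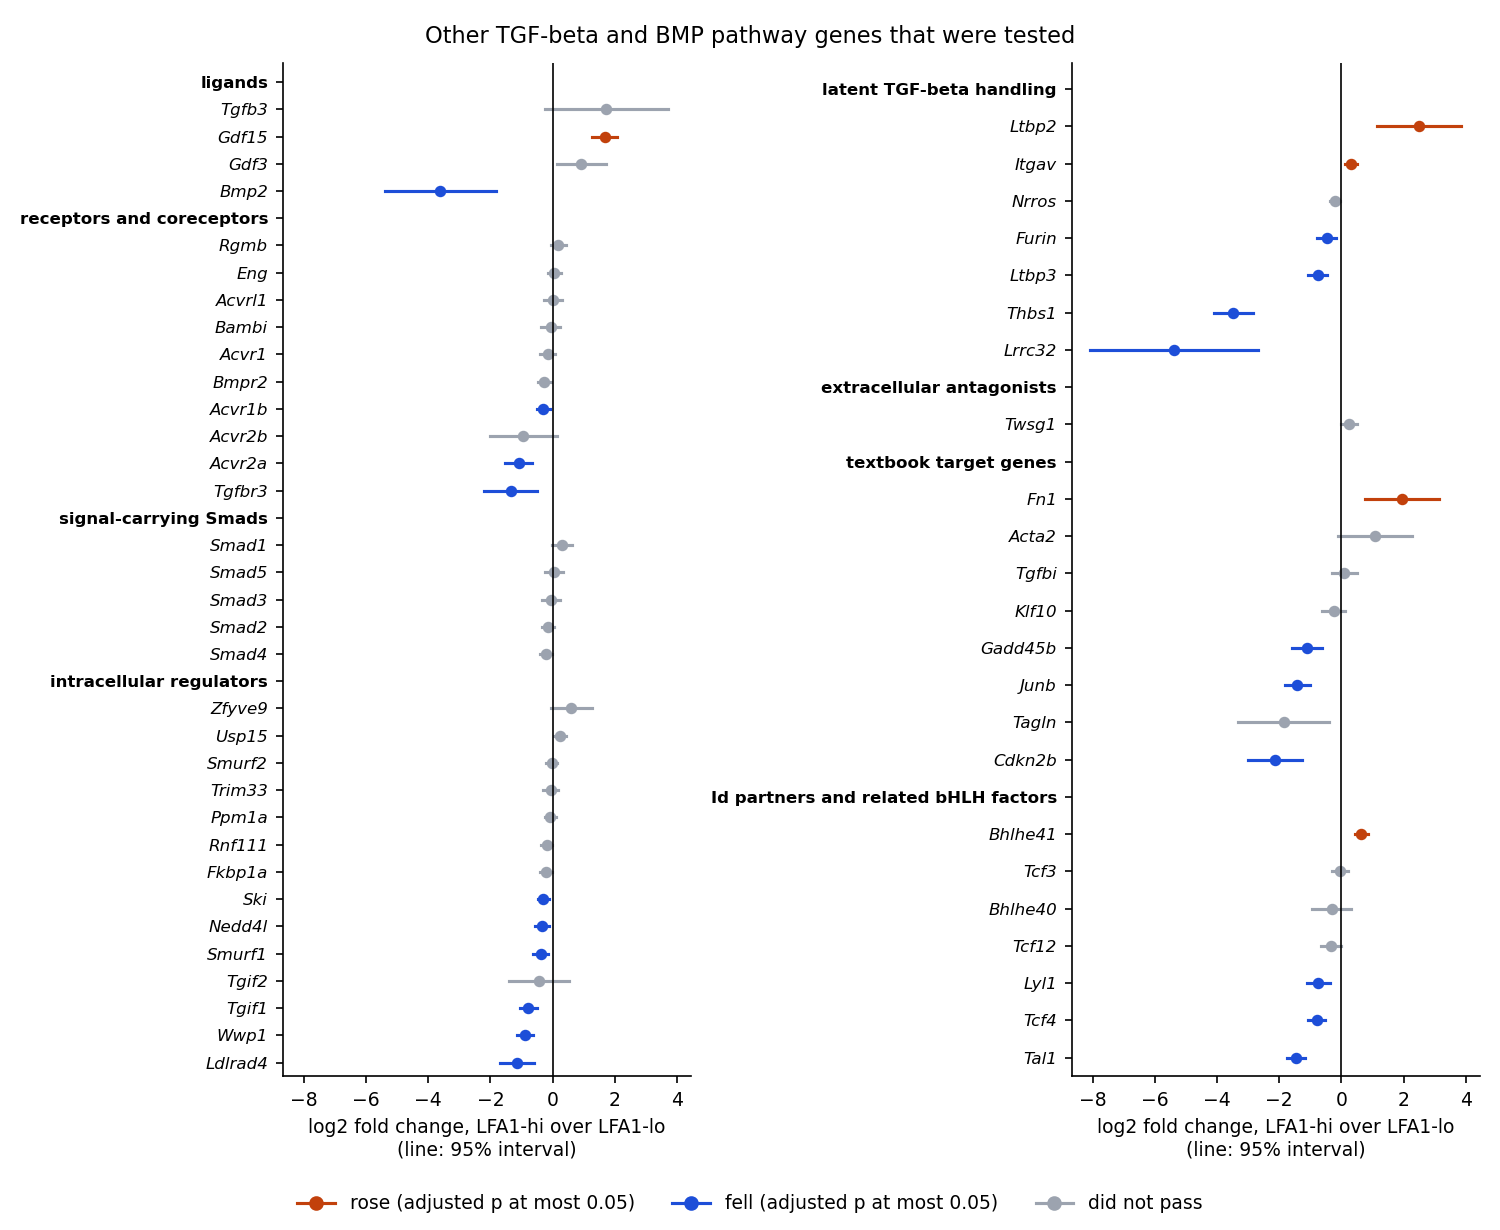
Log2 fold change of LFA1-hi over LFA1-lo with its 95% interval for tested genes of the pathway lists, grouped by role, in orange where the gene rose, blue where it fell and grey where it did not pass an edgeR adjusted p of 0.05. The signal-carrying Smads lie between −0.22 (Smad4) and 0.31 (Smad1), all in grey, and Lrrc32, Bmp2 and Thbs1 lie farthest to the left.

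In both groups the order of the 10 genes by TPM began with Tgfb1 and Id2 and ended with Smad7, Smad6 and Bmpr1a, none of which overlapped its neighbour in that order. Id1 followed Id2 in LFA1-hi, at 115 ± 7.40 TPM, with no overlap with Id2 above it or Id3 below it, and it lay between Skil and Smad7 in LFA1-lo, at 18.7 ± 3.90 TPM, again without overlap. In LFA1-hi all neighbours in the order were separate. In LFA1-lo the ranges of Tgfbr2, Tgfbr1, Id3 and Skil overlapped from each gene to the next, at 84.4 ± 27.2, 64.7 ± 4.71, 56.5 ± 25.7 and 31.5 ± 2.73 TPM, so their order is not resolved there.

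The spread between libraries of a group also differed among the genes. Tgfbr1 and Skil were among the steadiest, with a within-group SD of log2 CPM of 0.05 and 0.07, smaller than in all but 3.80% and 8.67% of tested genes. Bmpr1a (0.70) and Id3 (0.56) were among the most variable, above 94.9% and 91.3% of tested genes. Bmpr1a had 21 to 94 counts a library, and Id3 lay farthest from the other libraries in LFA1-lo replicate 2, with a log2 deviation of −1.29 from its mean over the 6 libraries. In that library Tgfbr2 and Smad6 were also the lowest of the 6. Id2, at 98.3 CPM, Tgfb1, at 598 CPM, and Bmpr1a, at 6.00 CPM, were there the highest of the LFA1-lo group. Skil, at 109.1 CPM, and Tgfbr1, at 185.9 CPM, were there the lowest of that group.

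**Figure D4:**
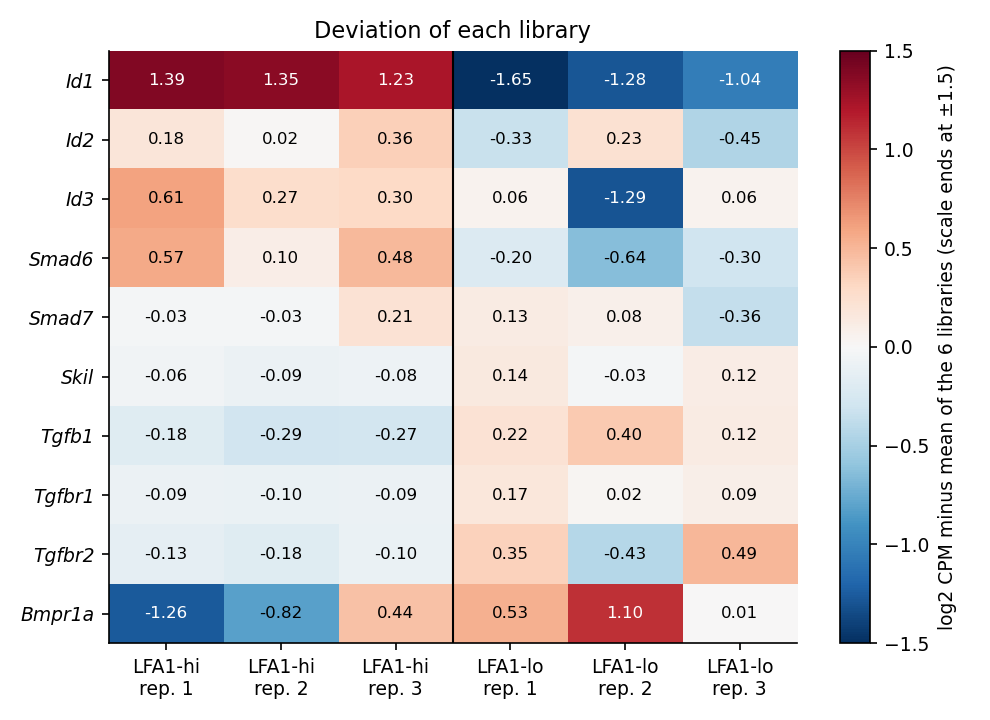
Log2 CPM of each gene in each library minus the mean of the 6 libraries, LFA1-hi left of the line and LFA1-lo right of it, red above and blue below the mean, with the colour scale ending at 1.5. Id1 is the gene whose libraries split most widely by group, and LFA1-lo replicate 2 departs from its group for Id2, Id3 and Tgfbr2.

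The genes nearest to each Id gene in profile were named by the root mean square difference between log2 CPM profiles over the 6 libraries, each centred on its own mean, among 9520 genes with at least 5 CPM on average. Nearest to Id1 were Ccne2, encoding cyclin E2 (0.24), Ccl7, a chemokine (0.25), and Dach1, a transcriptional regulator (0.26), where the median gene was at 1.33. Ccne2 had 60.6, 57.9 and 59.3 CPM in LFA1-hi, against 11.7, 12.0 and 14.5 CPM in LFA1-lo. Nearest to Id2 were Armcx2 (0.04), Alg1 (0.06) and Brix1 (0.07), where the median gene was at 0.36. Nearest to Id3 were Irs2, an adaptor of insulin signalling (0.10), Itgal, the LFA1 chain used in the sort (0.10), and Trpv4, a cation channel (0.10), where the median gene was at 0.63. Like Id3, these 3 genes were lowest in LFA1-lo replicate 2, Itgal at 64.3 CPM there, against 145 and 156 CPM in the other LFA1-lo libraries. Between the groups Itgal (0.75, edgeR adjusted p = 0.0997), Irs2 (0.62, adjusted p = 0.12) and Trpv4 (0.62, adjusted p = 0.181) did not pass.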

How the data were processed

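The 6 libraries, 3 LFA1-hi and 3 LFA1-lo, were used. Per the labels' protocols, monocyte subsets were sorted from bone marrow, cultured for 7 days with fresh medium on day 4, and ribosomal RNA was depleted before random-primed libraries were made. RSEM, Trim Galore, bcl2fastq and the build GRCm38 were used per the submitters' processing notes; of those, no version, no aligner and no strand setting is named (each not given in the sources used here). Each library has RSEM's deposited gene table: per the file headers, expected counts (estimated reads per gene, not normalized), TPM and FPKM (both scaled by the authors for length and library size), and gene lengths in bases.

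For the count test, expected counts were rounded (5.53% to 6.06% of values were not whole), filtered with filterByExpr (11692 of 24411 genes kept) and scaled by TMM, with factors of 0.956 to 1.034 over the 6 libraries. CPM were computed with these scaled library sizes. LFA1-hi was compared with LFA1-lo by a robust quasi-likelihood test (edgeR 4.0.16, run in R 4.3.3), and p-values were adjusted by Benjamini-Hochberg over the whole table and called at 0.05. Standard errors are the log2 fold change over the square root of F. Alternatives also used limma 3.58.1 and DESeq2 1.42.0. Permutation tests, tables and plots used scipy 1.17.1, numpy 2.4.6, pandas 2.3.3 and matplotlib 3.10.9 under Python 3.11.15. Coordinates are from RefSeq on GRCm38.p6, counted from 1, and promoter windows, which 7 of the 10 genes had, are RefSeq's.

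The 10 genes and the gene lists were chosen with earlier results of these data known. Named pathway genes are, for each list and direction, up to 4 passing genes with a mean of at least 1 CPM and the largest changes, plus all signal-carrying Smads, type I and II receptors and E proteins tested, and the 3 nearest profiles of each Id gene. Exceptions are marked. Protein features were planned and are not used here. The markers Ly6g and Trac are not analysed here. A few genes counted in the lists are not reported here by name.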

Additional observations from a re-analysis of the deposited data

How the results depend on the processing

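The 18 alternatives changed the scaling (library totals, upper quartile or RLE), the filter (none, or 10 CPM or more in 3 libraries), the rounding, or the tool (DESeq2, limma voom, limma on log2(TPM + 0.1) or log2(TPM + 1)), added a replicate block, dropped small and ribosomal RNA genes, or left out 1 library. The direction of the log2 fold change of 9 of the 10 genes was the same under each of these that could fit it, and Smad7 turned to −0.04 without LFA1-lo replicate 3. Id1 ran from 2.47 to 2.78. Smad6 passed in all but the fit without LFA1-hi replicate 1, that without LFA1-hi replicate 3 and the fit at 10 CPM, where it was too low to be tested. For the 10 genes such passing is a description, since the contrast chose them. Bmpr1a ran from −1.63 (without LFA1-hi replicate 3, where it passed) to −0.52 on log2(TPM + 1). All tested genes gave 3705 calls, and 2288 to 5032 over the fits that leave out a library. With library totals alone 60.9% of calls were higher (2294 higher, 1471 lower), against 50.8% in the main scaling (1883 higher, 1822 lower). Pathway genes that rose numbered 5, and 3 on log2(TPM + 1), and 3 to 8 over the fits that leave out a library. Total pathway calls stayed within 1.5-fold under every alternative.

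No pairing by replicate number was evident. Deviations of same-numbered libraries correlated at 0.04, 0.02 and −0.07, and not every library correlated best with its own number. With 3 libraries a group, such correlations cannot show that same-numbered libraries are unrelated. With the replicate block 5 pathway genes rose and 18 fell, the same 3 of the 10 genes passed, and Acvr1b, Itgav and Smurf1 were lost (adjusted p = 0.0693, 0.0562 and 0.0516 in edgeR), while Gdf3 passed (0.00428). Lengths and ratios moved with single libraries. The Skil length difference of 2.38 bases became −5.46, −0.49 and −0.02 without LFA1-hi replicate 2, LFA1-lo replicate 2 and LFA1-lo replicate 3, within −5.46 to 7.66. Without LFA1-lo replicate 3 the difference in the Id3 share (−3.75 percentage points) became 0.0649, within −11.3 to 0.0649, and that of Tgfbr2 per 100 TPM of Tgfbr1 (−10.6) became 5.01, within −30.6 to 5.01. The cause was not tested. Low counts limit Bmp2, Ltbp2, Tgfb3, Lrrc32, Acvr2b and Bmpr1a, and 3 libraries a group limit all errors.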

Other observations

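Some of the nearest tested genes on the chromosome, chosen after their values were seen, are given with their own values. All neighbours that passed are among them, Smad7 left aside. Of all tested genes 31.7% passed, and nothing is read from how many neighbours did. The remaining neighbours, Prkci, Zmat3, Ccdc97, Col15a1, Alg2, Azi2, Gm3219 and Wapal, did not pass. Beside Id1, H13, 27.6 kb before it (−0.11, edgeR adjusted p = 0.4), and Bcl2l1, a survival gene 21.3 kb after it (0.13, adjusted p = 0.522), did not pass. Beside Id2, Kidins220 fell by 0.35 at 30.6 kb (adjusted p = 0.00557) and Rsad2, an interferon-induced gene 1347 kb away, fell by 1.74 (adjusted p = 0.039). Rpl11 before Id3 did not pass (0.15, adjusted p = 0.262). The neighbour after Id3 at 26.9 kb is E2f2, a cell cycle transcription factor, which rose to 72.7 CPM in LFA1-hi, against 21.4 CPM in LFA1-lo (1.77, SE 0.22, adjusted p = 0.000729). Next to Smad6 the kinetochore gene Zwilch, 115 kb away, rose by 1.34 (adjusted p = 0.000517), and Smad3 on its other side did not pass (−0.04, adjusted p = 0.828). Stt3b, 777 kb before Tgfbr2, rose by 0.23 (adjusted p = 0.025). B9d2, whose end lies 440 bases before Tgfb1, was at 5.63 CPM in LFA1-hi and 5.89 CPM in LFA1-lo and did not pass (−0.07, adjusted p = 0.862).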
